A study of Mus musculus with 14 samples.

Results

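The mitochondrial chromosome of the mouse, a circle of 16299 bases in the GRCm39 build, carries 37 genes, and their transcripts in whole kidney are described here. The members were all genes on chromosome M, whose symbols start with mt-, and they made up 37 of the 56980 genes in the count files. They are 13 mRNAs, 2 rRNAs and 22 tRNAs. Counts were above 0 for 16 members (the 13 mRNAs, the 2 rRNAs and 1 tRNA, mt-Tp), and all 16 had more than 10 counts in total over the libraries, which was the requirement for testing. The other 21 tRNAs were at 0 in every library in the unstranded counts.

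Mitochondrial DNA is transcribed from both strands into long precursor RNAs. In most of the genome, tRNAs sit between the larger genes, and cutting them out releases the mRNAs and rRNAs, which then receive short poly(A) tails. The mRNAs encode core subunits of respiratory complexes I, III and IV and of ATP synthase (complex V), while all other subunits of these complexes, all of complex II, and every protein that transcribes, processes and translates mitochondrial RNA come from nuclear genes. Kidney tubules, above all the proximal tubule and thick ascending limb, are rich in mitochondria because salt and solute transport consumes much ATP.

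The libraries came from whole kidneys of wild-type female CD-1 mice (an outbred strain) at 18 weeks of age, 1 library per mouse. Term mice were non-diabetic (T-ND, n = 4) or diabetic (T-D, n = 4), and the preterm mice, with 3 libraries in either group, were PT-ND or PT-D on the same basis, where diabetic mice received streptozotocin (STZ), a toxin of insulin-producing beta cells. All mice received cationic ferritin for imaging before the kidneys were taken. Preterm mice were also delivered by Caesarean section and raised by foster mothers given acepromazine in drinking water, whereas term mice were born naturally, so preterm birth cannot be told apart from these steps, and some PT-D females of the study were given STZ again, without the sources used here saying which libraries they became. Messenger RNA was selected with poly-T beads and the libraries were un-stranded. Each library held 16697246 to 28673176 counts on genes. T-D replicate 4 stood apart from the other 13 libraries, with 1.32% of its counts on the mitochondrial rRNAs (0.157% to 0.468% elsewhere) and 5.16% of its reads unmapped (1.60% to 4.01% elsewhere), and 5 library names carried a suffix a that the labels do not explain (replicates 1 and 2 of T-ND, replicate 1 of both diabetic groups and replicate 2 of PT-ND).

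The counts of several members depend on where neighbouring genes overlap or where the nuclear genome holds the same bases, and the stretches on which the results turn are printed from GRCm39. The plus-strand stretch chrM:14061-14164 holds mt-Te, the tRNA for glutamate, in capitals. It lies on the minus strand, directly beside mt-Nd6 (0 bases between them) and 5 bases from mt-Cytb, which starts within the lower-case bases at the right.
mt-Nd6/mt-Te/mt-Cytb: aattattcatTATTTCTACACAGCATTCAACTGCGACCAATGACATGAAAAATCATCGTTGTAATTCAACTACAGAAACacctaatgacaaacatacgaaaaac
The following 3 plus-strand stretches show, in capitals, the bases that belong to 2 genes at once, which are 43 bases of mt-Atp8 and mt-Atp6 (chrM:7917-7979), 7 bases of mt-Nd4l and mt-Nd4 (chrM:10157-10183), and 14 bases of mt-Nd5 and mt-Nd6, which face each other on opposite strands (chrM:13542-13575).
mt-Atp8/mt-Atp6 overlap: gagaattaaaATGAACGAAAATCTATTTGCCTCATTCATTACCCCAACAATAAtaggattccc
mt-Nd4l/mt-Nd4 overlap: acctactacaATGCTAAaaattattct
mt-Nd5/mt-Nd6 overlap: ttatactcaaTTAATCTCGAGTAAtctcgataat
The only tRNA counted on its own, mt-Tp (proline), is read from the minus strand at chrM:15356-15422 and is printed 5′ to 3′ as transcribed.
mt-Tp: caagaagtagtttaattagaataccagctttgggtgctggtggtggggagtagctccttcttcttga
The last pair shows the first bases of mt-Nd3 (chrM:9441-9481, plus strand) beside the same stretch of a nuclear pseudogene, Gm28438 (chr1:24652178-24652218, minus strand), with the single differing base in capitals (T9461C, numbered along chromosome M from 1, mitochondrial base first).
mt-Nd3 start: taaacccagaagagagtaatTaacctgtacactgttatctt
Gm28438 start: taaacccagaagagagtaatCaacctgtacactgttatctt

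A nuclear copy of the mitochondrial genome limited which mRNAs could be counted. A match of 4654 aligned bases on chr1:24650616-24655269 (minus strand) was 99.936% identical to the mitochondrial genome. It covered mt-Co2, mt-Atp8, mt-Atp6, mt-Co3, mt-Nd3 and mt-Nd4l entirely, with 31.3% of mt-Co1 and 63.6% of mt-Nd4. The aligner's gene counts take only reads placed at 1 position, so a read that matches both places equally well enters no gene, and 9.07% to 14.9% of all reads per library fell in that multi-mapping class. The levels of the 6 enclosed mRNAs are therefore counts of the few reads that could be placed, not levels of the transcripts.

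Levels between genes were compared as mean CPM (counts per 1000000 counts on genes) per kilobase of gene over the 14 libraries, and in that order the 7 mRNAs that extend beyond the copy and mt-Tp stood above all other members. mt-Co1, the catalytic subunit of complex IV (cytochrome c oxidase), had 34667 ± 5364 (SD, n = 14). mt-Cytb, the cytochrome b of complex III, had 19556 ± 5624, and mt-Nd1, a complex I subunit of the membrane arm, had 16827 ± 2687. mt-Co1 was above mt-Cytb in 14 of 14 libraries, and mt-Cytb was above mt-Nd1 in 13 of 14, although their ranges over the libraries overlapped. Other complex I subunits followed, with mt-Nd2 at 9587 ± 3050, mt-Nd4 at 6764 ± 2128 and mt-Nd5 at 2573 ± 1024. All values divide by the full gene length, although 63.6% of mt-Nd4 and 31.3% of mt-Co1 lie inside the copy, where most reads are not counted. The values of these 2 genes are therefore too low, and the place of mt-Nd4 in the order is not its rank as a transcript. mt-Nd6, the only mRNA encoded on the opposite strand, had 2104 ± 778 CPM per kb and did not differ from mt-Nd5 beyond the SDs, although mt-Nd5 was higher in 13 of 14 libraries. This order holds for the unstranded counts, which leave out fragments that touch both genes. With the files' 2 strand columns summed, which keeps them, mt-Nd5 (1824 bases) had 1692357 counts and mt-Nd6 (519 bases) 643592. Per kb mt-Nd6 was then the higher.

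The rRNAs, which form the small (mt-Rnr1, 12S) and large (mt-Rnr2, 16S) subunits of the mitochondrial ribosome, had 1872 ± 1701 and 950 ± 877 CPM per kb, each mean below those of the 7 mRNAs in libraries that were selected for poly(A). mt-Tp had 3448 ± 898, but it is only 67 bases long and borders the noncoding control region, and the counting rule gives it any fragment that touches it and no other gene. Among the 6 mRNAs inside the copy the means ran from 120 for mt-Co2 through 89.8 for mt-Co3, 58.0 for mt-Atp6, 11.6 for mt-Nd3 and 3.38 for mt-Nd4l to 0.354 for mt-Atp8. mt-Atp8, a small ATP synthase subunit, never exceeded 4 counts in a library, and no fold change is printed for it, but its fitted value enters the counts and medians over the 13 mRNAs. For mt-Nd3, the pseudogene whose start is printed above carried 5.82 to 23.5 times the counts of the mitochondrial gene in the same library.

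**Figure D1:**
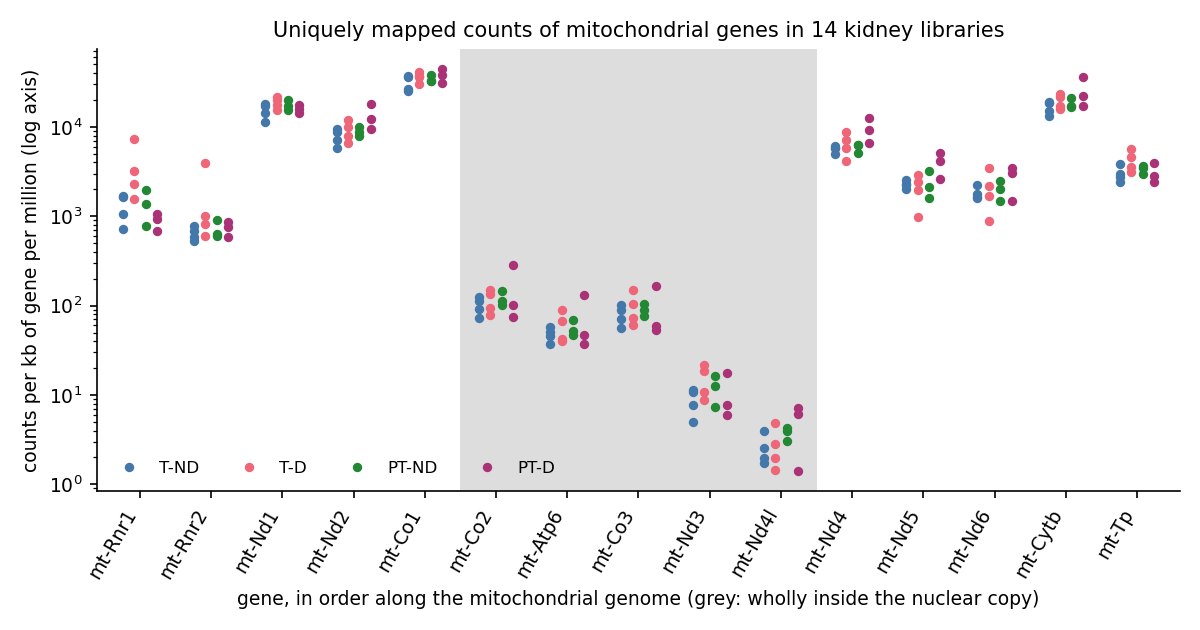
CPM per kb (log axis) of 15 mitochondrial genes in genome order (mt-Atp8, near 0, is left out), with 1 point per library coloured by group. mt-Co1 is highest with a mean of 34667, and the genes on grey, which lie wholly inside the chromosome 1 copy, run from mt-Co2 at 120 down to mt-Nd4l at 3.38.

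The first question was what share of the uniquely placed counts was mitochondrial mRNA and whether preterm birth or diabetes went with a different share. Reads that match the chromosome 1 copy equally well are not in these counts, so the share does not give the whole mitochondrial part of the kidney mRNA. The 13 mRNAs took 11.8%, 11.8%, 8.25% and 9.24% of the counts on genes in T-ND replicates 1 to 4. T-D replicates 1 to 4 had 13.4%, 10.3%, 13.2% and 10.7%, and PT-ND replicates 1 to 3 had 11.1%, 12.7% and 10.3%. PT-D replicates 1 to 3 had 16.7%, 13.8% and 10.9%. PT-D therefore held the 2 highest shares of the series, but its lowest library lay inside the range of every other group. In each group the highest share belonged to a library whose name carries the suffix a. Among those libraries the shares were 11.8% and 11.8% in T-ND, 13.4% in T-D, 12.7% in PT-ND and 16.7% in PT-D, and among the others both PT-D libraries (13.8% and 10.9%) were above T-ND (8.25% and 9.24%). The part of the suffix in the result was not tested.

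The mean share was 13.8% ± 2.89 (SD, n = 3) in PT-D and 10.3% ± 1.80 (SD, n = 4) in T-ND, a difference of 3.54 percentage points that was not significant (two-sided exact permutation p = 0.171, adjusted p = 0.375 over the 5 pairs). T-D had 11.9% ± 1.65 (SD, n = 4) and PT-ND 11.4% ± 1.22 (SD, n = 3), and no other pair passed either (adjusted p = 0.375 to 0.4). Leaving out PT-D replicate 1, the library with the highest share, moved the PT-D minus T-ND difference from 3.54 to 2.09 percentage points, and leaving out PT-D replicate 3 moved it to 4.97. With 3 against 4 libraries the smallest possible p is 0.0571, with 3 against 3 it is 0.1 and with 4 against 4 it is 0.0286. Only the T-D against T-ND comparison could thus have gone below 0.05. In bulk tissue, a different number of cells rich in mitochondria and a different amount of mitochondrial RNA per cell cannot be told apart.

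**Figure D2:**
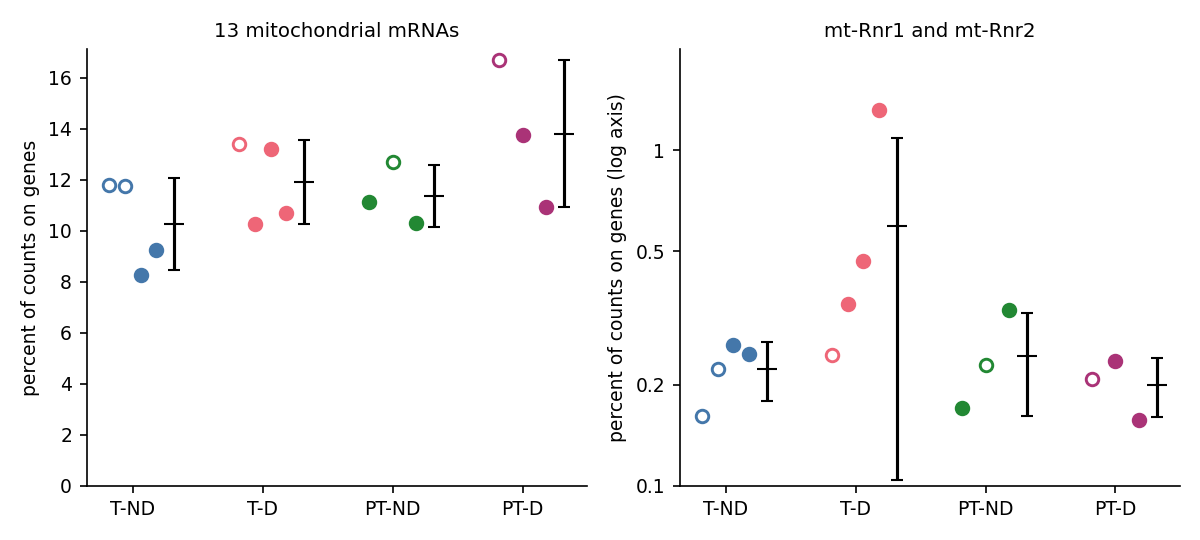
Share of the 13 mitochondrial mRNAs in the counts on genes and share of the 2 mitochondrial rRNAs (log axis), in percent, with 1 point per library (open: name suffix a) and the group mean and SD as bars beside the points. Only uniquely placed reads are counted, so reads that match the chromosome 1 copy equally well are left out. PT-D libraries span 10.9% to 16.7% for mRNA and overlap all other groups, and T-D replicate 4 lies apart at 1.32% for rRNA.

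Per gene, PT-D was first compared with T-ND, the contrast of preterm birth and diabetes together against neither. Values are TMM-normalised CPM unless a share is stated. None of the 16 members was a differentially expressed gene (DEG, requiring an adjusted p under 0.05 and a fold change past 1 on the log2 scale in either direction) by edgeR's quasi-likelihood test, where 1.45% of all 22310 genes tested were. By the same test 3 of the 16 members had an unadjusted p under 0.05, as did 24.3% of all genes. By DESeq2 there were also 0 DEGs, and 2 of the 16, mt-Nd4 and mt-Nd5, passed an adjusted p under 0.05, as did 12.3% of all genes.

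The mRNAs leaned upward. Of the 13 mRNAs, 12 had a positive log2 fold change, and for the 7 that extend beyond the copy the median was 0.58 against 0.029 over all genes tested. mt-Nd5, a complex I subunit near the end of its precursor RNA, had 4557, 4150, 3520 and 3802 CPM in T-ND replicates 1 to 4. Its PT-D libraries had 4503, 8986 and 6895 CPM. Replicates 2 and 3 of PT-D were above every T-ND library and replicate 1 was not. The log2 fold change of mt-Nd5 was 0.75 (SE 0.21, edgeR adjusted p = 0.0747), a 1.68-fold difference. Without PT-D replicate 1 it was 0.97 (edgeR adjusted p = 0.0388), and the median over the 13 mRNAs, 0.53 with all libraries, was 0.11.

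mt-Nd4, a complex I proton-pumping subunit, had 8366, 8001, 6524 and 7544 CPM in T-ND and 16322, 12351 and 8351 CPM in PT-D, so that only PT-D replicate 3 overlapped (log2 fold change 0.69, SE 0.21, edgeR adjusted p = 0.0939). mt-Cytb had 21582, 20766, 14514 and 16196 CPM in T-ND and 39634, 24457 and 17911 CPM in PT-D (log2 fold change 0.58, SE 0.26, edgeR adjusted p = 0.215). mt-Nd2, another proton-pumping subunit, had 8919, 9854, 5759 and 7018 CPM in T-ND and 17872, 12315 and 8923 CPM in PT-D (log2 fold change 0.72, SE 0.26, edgeR adjusted p = 0.130). PT-D replicate 1 was the highest of all 14 libraries for mt-Nd2, mt-Nd4 and mt-Cytb but not for mt-Nd5 or mt-Nd6. The mt-Nd6 mRNA of the other strand had 1148, 818, 805 and 864 CPM in T-ND and 734, 1752 and 1467 CPM in PT-D, so that the lowest and the highest of these 7 libraries were both PT-D (log2 fold change 0.53, SE 0.26, edgeR adjusted p = 0.247). With the strand columns summed, which keeps fragments shared with mt-Nd5, T-ND had 2027, 1639, 1475 and 1614 CPM and PT-D 1705, 3526 and 2636 CPM. PT-D replicate 1 then lay within the T-ND range (log2 fold change 0.62, SE 0.22, edgeR adjusted p = 0.133). Not all members leaned upward: mt-Nd1 was at 0.029 (SE 0.20) and mt-Rnr1 at -0.55 (SE 0.28, edgeR adjusted p = 0.259), the lower member with the smallest p. In no mRNA did the PT-D and T-ND libraries separate completely, while 12.0% of all genes had every PT-D library above every T-ND library.

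Between preterm and term diabetic kidneys (PT-D against T-D) the rRNAs had the largest fold changes of the members. mt-Rnr1 had 1464, 2187, 3330 and 8258 CPM in T-D replicates 1 to 4. In PT-D it had 842, 974 and 600 CPM. Every PT-D library was below every T-D library. The log2 fold change was -2.25 (SE 0.51) and the edgeR adjusted p of 0.0699 missed the threshold. mt-Rnr2, at 937, 1318, 1725 and 7457 CPM in T-D and 1129, 1324 and 840 CPM in PT-D, leaned the same way with -1.39 (SE 0.60, edgeR adjusted p = 0.203), with overlapping groups. Leaving out T-D replicate 4, mt-Rnr2 was at -0.28 (edgeR adjusted p = 0.547), while mt-Rnr1 was at -1.53 with an edgeR adjusted p of 0.0436 and was the 1 DEG of the members, beside 0.471% of all genes.

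In the same comparison 0 of the 16 members were DEGs against 0.193% of all genes. By edgeR 4 of the 16 had an unadjusted p under 0.05, as did 22.3% of all genes, and DESeq2 made 1 member, mt-Rnr1, a DEG, beside 2.96% of all genes. The higher member with the smallest p was mt-Nd5 at 0.79 (SE 0.31, edgeR adjusted p = 0.166), from 5140, 4464, 3877 and 2125 CPM in T-D. T-D replicate 4 had the lowest mt-Nd5 and mt-Nd6 (546 CPM) of all 14 libraries. PT-D replicate 1 lay within the T-D range for mt-Nd5 and PT-D replicates 2 and 3 above it. The median over the 13 mRNAs was 0.25 beside 0.061 over all genes tested.

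STZ in term mice (T-D against T-ND) and in preterm mice (PT-D against PT-ND) gave 0 DEGs of 16 members each, where 0.0673% and 4.95% of all genes were DEGs. By edgeR 4 and 3 of the 16 had an unadjusted p under 0.05, beside 11.8% and 29.1% of all genes, and DESeq2 gave 0 DEGs in both. In term mice mt-Rnr1 was higher after STZ by a log2 fold change of 1.68 that missed the threshold (SE 0.46, edgeR adjusted p = 0.211), from 688, 996, 1477 and 1527 CPM in T-ND. T-D replicates 2 to 4 were above all T-ND libraries and T-D replicate 1 was not. Without T-D replicate 4 the log2 fold change was 0.99 (edgeR adjusted p = 0.288). In preterm mice it was at -0.75 (SE 0.32, edgeR adjusted p = 0.149), with 720, 1319 and 2027 CPM in PT-ND replicates 1 to 3, a range that PT-D overlapped.

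The interaction of birth and STZ, which asks whether the STZ difference was unlike in preterm and term mice, was where a member passed. mt-Rnr1 had an interaction of -2.45 on the log2 scale (SE 0.68, edgeR adjusted p = 0.0460), and it was the 1 DEG among 16 members, against 4.45% of all 22339 genes tested, and also the 1 member called by DESeq2, beside 7.38% of all genes by that tool. mt-Rnr2 had -1.63 (SE 0.73, edgeR adjusted p = 0.179), and -0.53 without T-D replicate 4 (edgeR adjusted p = 0.391). The mt-Rnr1 call was kept without T-D replicate 1, T-D replicate 2 or PT-ND replicate 1 and lost without any 1 of the other 11 libraries (-2.75 to -1.74, the latter without T-D replicate 4). T-D replicate 4, the library with the highest mt-Rnr1, also had the most unmapped reads, whose part in the result was not tested.

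Among the mRNAs the STZ differences differed in sign by gene. mt-Nd5 was at -0.052 (SE 0.24, edgeR adjusted p = 0.954) in term mice and at 0.68 (SE 0.28, edgeR adjusted p = 0.139) in preterm mice, and their difference, the interaction, was 0.72 (SE 0.40, edgeR adjusted p = 0.293). mt-Nd1 was at 0.40 (SE 0.21) in term mice and -0.23 (SE 0.20) in preterm mice, with an interaction of -0.65 (SE 0.30, edgeR adjusted p = 0.188). Neither interaction passed. These comparisons share libraries with each other and with those above.

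Preterm birth without diabetes (PT-ND against T-ND) gave no member near the threshold. None of 16 was a DEG by edgeR or DESeq2, against 0.0809% of all genes, and none had an unadjusted p under 0.05 by either tool, which 10.7% of all genes had by edgeR. All 13 mRNAs leaned upward, by 0.082 to 0.61 on the log2 scale, beside a median of -0.00053 over all genes. The smallest p belonged to mt-Co2, a complex IV subunit inside the copy, at 0.32 (SE 0.21, edgeR adjusted p = 0.591).

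**Figure D3:**
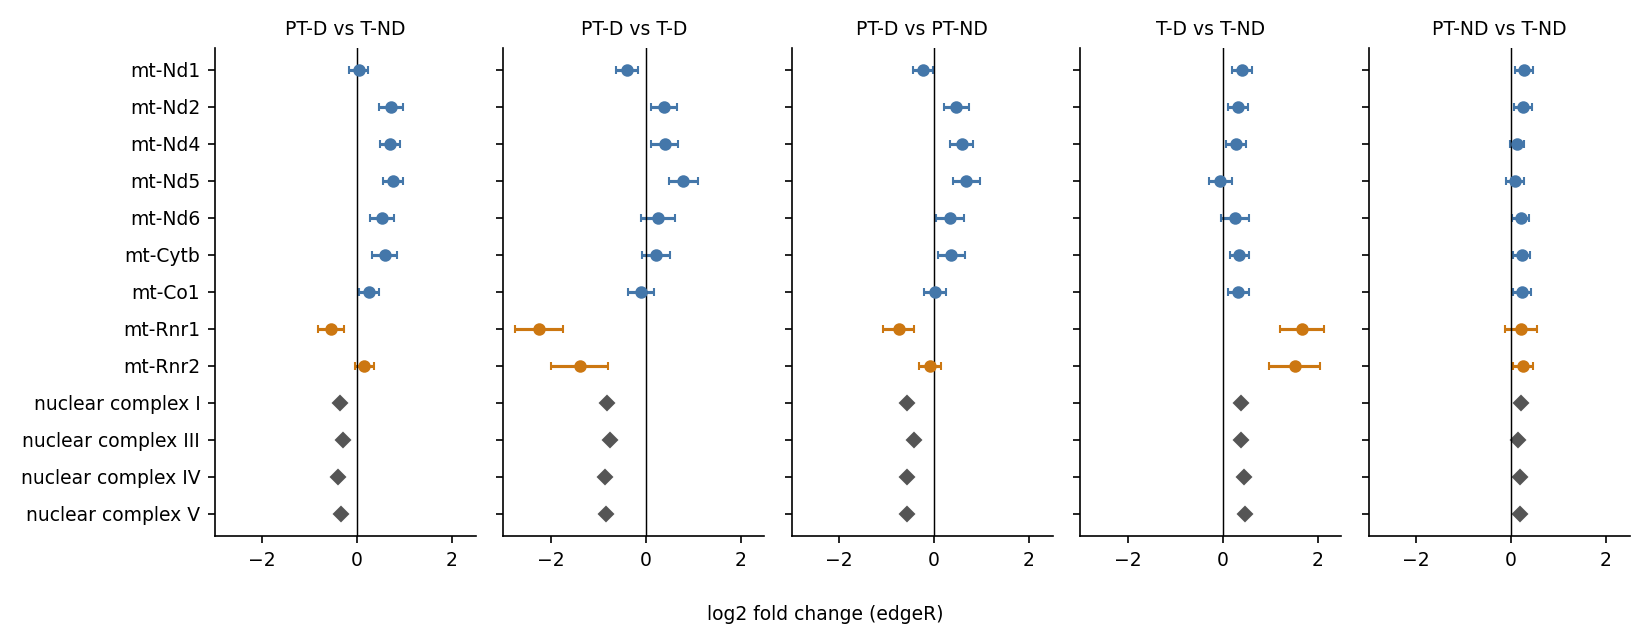
Log2 fold changes (edgeR) with standard errors of the 7 mRNAs beyond the copy (blue) and the 2 rRNAs (orange) in 5 pairs of groups, with the median over nuclear subunit genes of each complex (diamonds, no error shown). mt-Rnr1 runs from -2.25 in PT-D against T-D to 1.68 in T-D against T-ND, and no point passed the DEG thresholds.

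The composition of the uniquely placed mitochondrial mRNA counts, called the pool here, was compared next. A share within these counts does not depend on how many counts fall on nuclear genes. Reads that match the nuclear copy equally well are left out, so the shares are not those of the transcripts. The mRNAs inside the copy are almost absent from the pool, and the counts of mt-Co1 and mt-Nd4 are too low. The 7 mRNAs beyond the copy made up 99.7% to 99.91% of the pool, and mt-Co1 alone 40.7% to 53.0%. mt-Nd1 took 9.19% to 12.4% of the pool in PT-D and 13.01% to 15.8% in the other 11 libraries, with no overlap. Its mean of 11.3% ± 1.83 (SD, n = 3) in PT-D against 14.1% ± 0.836 (SD, n = 4) in T-ND reached the smallest possible exact permutation p of 0.0571 (adjusted p = 0.743 over the 65 gene and pair tests).

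mt-Nd2, another complex I subunit, took 8.91% to 11.3% of the pool in PT-D against 7.34% to 8.44% in T-ND, without overlap, and the same adjusted p. mt-Co1 took 40.7% to 44.0% in PT-D and 44.2% to 48.5% in T-ND, with the same adjusted p. In all, 8 of 65 tests had groups that did not overlap, and none had a p under 0.05. The PT-D libraries were not alike among themselves: replicate 1 had 24.97% mt-Cytb and 2.84% mt-Nd5, whereas replicates 2 and 3 had 6.70% and 6.88% mt-Nd5.

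**Figure D4:**
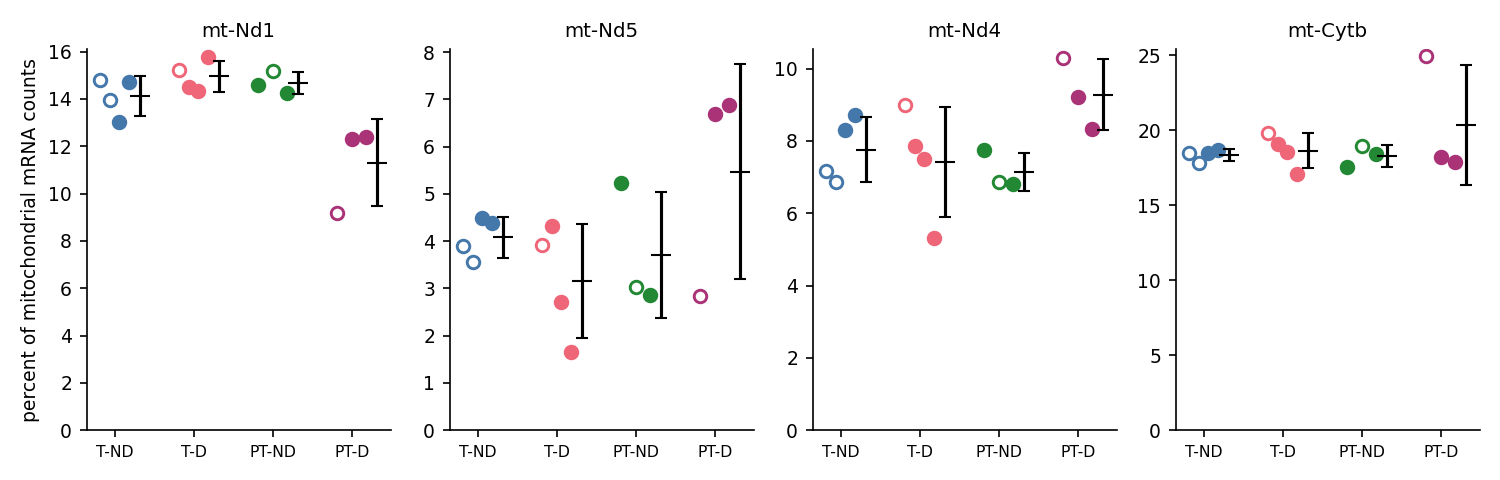
Shares of mt-Nd1, mt-Nd5, mt-Nd4 and mt-Cytb in the uniquely placed mitochondrial mRNA counts, in percent, with 1 point per library (open: name suffix a) and the group mean and SD as bars. mt-Nd1 lies at 9.19% to 12.4% in PT-D and at 13.01% to 15.8% in all other libraries, and PT-D replicate 1 stands apart from replicates 2 and 3 for mt-Nd5 and mt-Cytb.

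The ratio of rRNA to mRNA counts within a library was lowest in PT-D. Its mean on the log2 scale was -6.11 ± 0.23 (SD, n = 3) in PT-D, -5.53 ± 0.54 (SD, n = 4) in T-ND, -4.62 ± 1.15 (SD, n = 4) in T-D and -5.59 ± 0.57 (SD, n = 3) in PT-ND. All PT-D libraries lay below all T-D libraries, a difference of -1.48 that reached the smallest possible exact permutation p of 0.0571 (adjusted p = 0.25 over 5 pairs). Without T-D replicate 4 the difference was -0.95. The difference from T-ND was -0.58 (exact permutation p = 0.171). The rRNA share itself was 0.207%, 0.236% and 0.157% of counts in PT-D and 0.162%, 0.222%, 0.262% and 0.247% in T-ND, with overlap.

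For the 21 tRNAs at 0 in the unstranded counts, the files' strand-specific columns held more. Under the counting rule, a fragment that touches genes on opposite strands is ambiguous when strand is ignored and goes to 1 gene when strand is considered, so the sum of the 2 strand columns counts it. In that sum 7 of the 21 tRNAs exceeded 10 counts over all libraries and 14 did not. The most counted were mt-Tq (glutamine) with 24172, mt-Te with 22262 and mt-Ts1 (serine) with 9707. Because the libraries are un-stranded, these counts do not tell which strand was transcribed, nor do they separate a mature tRNA from longer RNAs that span it.

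The glutamate tRNA interval had the smallest edgeR adjusted p of any member in the pairs of groups. mt-Te had 45.5, 40.0, 44.2 and 71.1 strand-summed CPM (of the counts on genes, without the TMM factor) in T-ND replicates 1 to 4. T-D had 117, 55.0, 84.9 and 27.3, and PT-ND had 92.3, 47.6 and 42.1. PT-D had 128, 142 and 122. On this scale all 3 PT-D libraries were above all 11 others. With the TMM factor PT-D had 109, 124 and 101 and T-D replicate 1 had 103, so that PT-D overlapped T-D. Against T-ND the log2 fold change was 1.35 (SE 0.19, edgeR adjusted p = 0.0195), the 1 DEG of 23 members in the strand-summed counts, where 1.42% of all genes were DEGs. Against PT-ND it was 1.03 (SE 0.24, edgeR adjusted p = 0.0233), again the 1 DEG of 23, beside 4.82% of all genes.

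Other contrasts of mt-Te did not pass. It was at 0.76 for PT-D against T-D (edgeR adjusted p = 0.210), 0.59 for T-D against T-ND (edgeR adjusted p = 0.491) and 0.34 for PT-ND against T-ND (edgeR adjusted p = 0.653). The gene was singled out after its values were seen. Against T-ND the call was lost in the libraries without suffix (1.20, edgeR adjusted p = 0.0960), without T-ND replicate 1 (1.32, edgeR adjusted p = 0.0724) and without PT-D replicate 2 (1.27, edgeR adjusted p = 0.0681). Against PT-ND it was lost in the libraries without suffix (0.90, edgeR adjusted p = 0.105) and without PT-ND replicate 2 (0.88), PT-ND replicate 3 (0.85) or PT-D replicate 2 (0.94, edgeR adjusted p = 0.0503 to 0.0914). Per 1000 counts of its neighbour mt-Cytb, mt-Te had 3.06, 5.66 and 6.26 in PT-D and 1.49 to 4.73 elsewhere, with overlap.

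Fragments that were counted on mt-Cytb by strand and not without it, and thus touch mt-Cytb and a gene of the other strand, followed the same order. They came to 203, 197, 179 and 290 CPM in T-ND and to 497, 222, 340 and 92.4 in T-D. PT-ND had 387, 208 and 157, and PT-D had 621, 706 and 510, again above all 11 others. These fragment values, and those at mt-Nd5 and mt-Nd6 below, leave out the TMM factor. Divided by the TMM factors (1.02 for T-D replicate 1, 1.09 for PT-D replicate 3), T-D replicate 1 lies above PT-D replicate 3. A fragment across mt-Te and mt-Cytb enters both the mt-Te and the mt-Cytb values, so they are not independent. The corresponding fragments at mt-Nd5 and mt-Nd6, whose overlap is printed above, came to 0.212 to 0.274 of the mt-Nd5 count and 0.790 to 1.58 of the mt-Nd6 count, so that the unstranded mt-Nd6 level leaves out about as many fragments as it holds. They were 1129, 1035, 886 and 997 CPM in T-ND and 1220, 2257 and 1594 in PT-D, with no overlap between these groups. T-D had 1418, 952, 947 and 488 and PT-ND had 1466, 907 and 706, and PT-D overlapped both through its replicate 1.

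**Figure D5:**
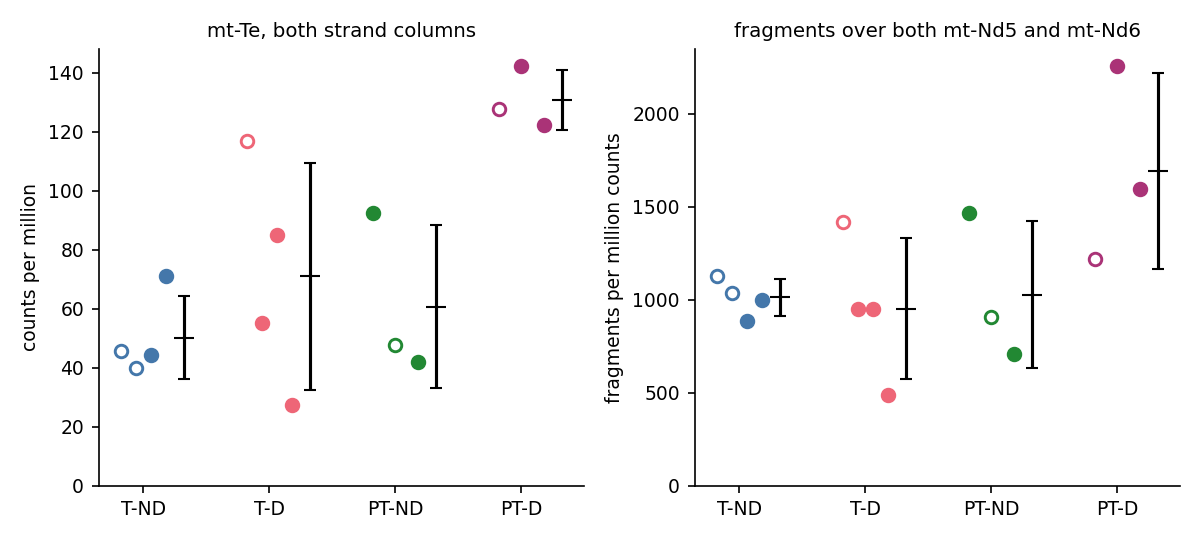
Strand-summed counts of mt-Te (left) and fragments over both mt-Nd5 and mt-Nd6 (right), in CPM, with 1 point per library (open: name suffix a) and the group mean and SD as bars. Both panels leave out the TMM factor, and on this scale the PT-D libraries of mt-Te (122 to 142) lie above all others (27.3 to 117). With the factor, mt-Te is 101 in the lowest PT-D library and 103 in the highest T-D library, an overlap.

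The nuclear genes of the same respiratory complexes leaned the other way. For complex I the 7 mitochondrial mRNAs had a median log2 fold change of 0.69 in PT-D against T-ND, all 7 positive, beside -0.36 for the 37 nuclear subunit genes, 36 of them negative. For complex III, mt-Cytb at 0.58 stood beside a median of -0.30 over 9 nuclear genes. For complex IV, mt-Co1 at 0.24 stood beside -0.40 over 11 nuclear genes. The 18 nuclear ATP synthase genes had a median of -0.33, and their mitochondrial partners lie inside the copy. Of all 79 nuclear genes listed, complex II included, 1 passed an adjusted p under 0.05, Ndufb8, a complex I accessory subunit, which fell by 0.97 (edgeR adjusted p = 0.0147), where 1.15% of all genes passed downward and 1.61% upward. By edgeR 50 of the 79 had an unadjusted p under 0.05, beside the 24.3% of all genes given above. By DESeq2 21 of the 79 passed downward and none upward, beside 6.25% of all genes downward and 6.08% upward.

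In PT-D against T-D the nuclear medians were -0.81, -0.76, -0.85 and -0.83 for complexes I, III, IV and V, beside 0.39 for the mitochondrial complex I mRNAs, 0.22 for mt-Cytb and -0.10 for mt-Co1. Ndufb8 alone passed (-1.29, edgeR adjusted p = 0.0310), where 0.0583% of all genes passed downward and 0.135% upward. By DESeq2 68 of the 79 passed downward and none upward, beside 6.04% and 4.1% of all genes. Without T-D replicate 4, whose nuclear subunit share of 4.22% was the highest of the series, the edgeR median over the 79 moved from -0.81 to -0.59, with 78 negative and 4 passing downward (Ndufb1, Ndufb8, Cox7c and Cox8a), where 0.48% of all genes passed downward and 0.601% upward. Taken as a ratio within each library, mitochondrial mRNA counts over nuclear subunit counts were 2.65, 2.47 and 2.24 on the log2 scale in PT-D. They were 1.93, 1.98, 1.504 and 1.59 in T-ND, 2.18, 1.59, 1.99 and 1.34 in T-D, and 2.04, 2.01 and 1.55 in PT-ND. All PT-D libraries were above all others, which is given as a description because the ratio was formed after the shares were known. The nuclear subunits took 2.31% to 2.66% of counts in PT-D and 2.71% to 4.22% in the other groups.

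Nuclear genes that act on mitochondrial DNA and RNA had few calls by edgeR. Among 11 genes of mitochondrial transcription, 0 passed in PT-D against T-ND by edgeR (median -0.22), with Mrpl12, a ribosomal protein also known to bind the mitochondrial RNA polymerase, at -0.55 (edgeR adjusted p = 0.0808) and Tfam, which packages and activates mitochondrial DNA, at -0.38 (edgeR adjusted p = 0.118). Among 29 genes of RNA processing and stability 0 passed (median -0.09), with the pseudouridine synthase gene Trub2 at -0.77 (edgeR adjusted p = 0.0506) and Lrpprc, which stabilises mitochondrial mRNAs, at 0.51 (edgeR adjusted p = 0.0573). Lrpprc had 106, 128 and 127 CPM in PT-D and 88.0, 73.2, 87.7 and 87.9 CPM in T-ND, without overlap. None of 16 replication genes (median -0.14) or 21 aminoacyl-tRNA synthetases and related enzymes (median -0.21) passed by edgeR or DESeq2. In the order given, 2, 8, 0 and 5 genes of these 4 lists had an unadjusted edgeR p under 0.05, beside 24.3% of all genes. DESeq2 passed Mrpl12, Trub2 and Lrpprc, in the directions of their values above, beside 6.25% of all genes downward and 6.08% upward.

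Of 17 translation and assembly factors 1 passed, Coa3, needed for complex IV assembly, which fell by 0.71 (edgeR adjusted p = 0.0401). Of 13 regulators of mitochondrial biogenesis, Pprc1, a coactivator of the PGC-1 family, rose by 1.24 (edgeR adjusted p = 0.0297) and Esrrb, an estrogen-related nuclear receptor, fell by 1.25 (edgeR adjusted p = 0.0454). Over all genes 1.61% passed upward and 1.15% downward by edgeR. By DESeq2 Coa3, Pprc1 and Esrrb passed as well, together with Cox14 and Esrra downward and Mss51 upward, beside 6.25% of all genes downward and 6.08% upward. Pprc1 had 26.1, 24.9 and 27.9 CPM in PT-D and 8.69, 7.68, 14.5 and 13.5 CPM in T-ND. In PT-D against T-D none of these lists had a member that passed by edgeR. By DESeq2 1 transcription gene (Mrpl12), 3 processing genes (Angel2, Fastk and Hsd17b10), 1 replication gene (Slc25a33), 5 translation and assembly factors (Mrrf, Tufm, Tsfm, Coa3 and Cox14) and 2 regulators (Sirt3 and Esrra) passed downward and Pprc1 upward, beside the 6.04% and 4.1% of all genes given above. By edgeR without T-D replicate 4, Coa3, Cox14 and Esrra passed downward and Pprc1 upward, beside 0.48% and 0.601% of all genes. The use of DESeq2 and the omission of this library for the gene lists were chosen after seeing the data. With all libraries Pprc1 was at 1.06 (edgeR adjusted p = 0.0689), Mrpl12 at -0.85 (edgeR adjusted p = 0.0884) and Esrra, a receptor that drives respiratory genes, at -0.65 (edgeR adjusted p = 0.0820).

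Markers of several cell types moved alongside these differences, and their part in them was not tested. In PT-D against T-ND 1.61% of all genes passed upward and 1.15% downward by edgeR, and 6.08% and 6.25% by DESeq2. An unadjusted edgeR p under 0.05 was found for 24.3% of all genes. Beside these shares, all 5 podocyte markers passed upward, with summed levels of 496 to 658 CPM in PT-D and 241 to 340 CPM in T-ND. Of 8 leukocyte markers 1 passed upward (Ptprc, 87.3 to 223 against 34.6 to 57.8 CPM summed) and 1 of 6 endothelial markers (Cdh5), where 5 and 2 had an unadjusted edgeR p under 0.05. By DESeq2 4 of the 8 leukocyte markers passed upward (Ptprc, S100a8, S100a9 and Itgam) and again Cdh5 alone of the endothelial ones. None of 12 proximal tubule markers passed by edgeR, where 2 had an unadjusted p under 0.05 and DESeq2 passed Slc27a2 and Aqp1 downward (12744 to 17262 against 14887 to 18820 CPM summed over the list), so the labelled tissue was evident in every library. Of 8 markers of thick ascending limb and distal tubule, Umod passed downward (-1.39, edgeR adjusted p = 0.0325), as did Umod and Cldn16 by DESeq2, and no marker of collecting duct, blood, fat or heart muscle passed by edgeR, where 4, 0, 0 and 1 had an unadjusted p under 0.05 and DESeq2 passed 3 collecting duct markers downward. Clu and Spp1 passed upward among 5 genes of tubular injury (3284 to 3883 against 1751 to 2533 CPM summed), of which 4 leaned upward and 1 downward. Havcr1 of this list passed by neither tool, with 4.82, 79.1 and 64.9 CPM in PT-D and 130, 122, 64.5 and 2.82 CPM in T-ND. Heart muscle markers summed to at most 1.23 CPM in PT-D and 0.531 CPM in T-ND. In PT-D against T-D no gene of these lists passed by edgeR. By DESeq2 3 podocyte, 3 endothelial and 2 leukocyte markers and Havcr1 passed upward and Cldn16 downward, beside 4.1% and 6.04% of all genes.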

How the data were processed

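The authors aligned trimmed reads to GRCm39 with STAR, per the labels and the study's methods, and counted reads per GENCODE gene (release M36 in those methods). The deposited values are raw counts of 56980 genes per library in an unstranded and 2 strand-specific columns. Rows of unmapped, multi-mapping, no-feature and ambiguous reads were kept out of library sizes (of uniquely mapped reads, 2.39% to 5.42% were on no feature and 6.86% to 8.09% were ambiguous). Names came from GENCODE M39, which matched 56236 IDs. The unstranded counts of genes with more than 10 counts in total were tested with edgeR 4.0.16 (R 4.3.3; TMM, quasi-likelihood, Benjamini-Hochberg over all genes tested) in each pair of groups, and in all 14 libraries for the interaction. The study used DESeq2 (1.42.0 here), which was an alternative beside other scalings, filters, covariates, library subsets, a replicate block and strand-summed counts. Single values were compared by two-sided exact permutation tests (scipy 1.17.1). Nuclear copies were found with blastn 2.17.0 (at least 200 aligned bases and 95% identity). The depth per library was 16697246 to 28673176 counts on genes. No fold change is printed for mt-Atp8, which had at most 4 counts in a library, but its fitted value enters the counts and medians over the 13 mRNAs.

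Members and gene lists were chosen with earlier results of these data known. Named with a test are members with an adjusted p under 0.05 or, if none, the smallest p in each direction. From each list, up to 3 passing genes per direction, or else the 2 smallest p values, are named. The other mRNAs were added after their values were seen. On simulated counts, 74% to 89.5% of 200 genes changed by 2 on the log2 scale were recovered over the comparisons. Libraries of a group differed by more than sampling noise (chi-square per gene 22.6 to 127).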

Additional observations from a re-analysis of the deposited data

Results flagged for a closer look

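Of 48 sets of 4 libraries examined for a single library far from the rest, 3 held one, where chance gives about 1 in 20. mt-Nd1 was low in T-D replicate 2 (14967 CPM, against 19965 to 20500 in the other T-D libraries). mt-Rnr2 was high in T-D replicate 4 (7457 CPM, against 937 to 1725). mt-Nd6 took a low share of the mitochondrial mRNA counts in T-ND replicate 2 (0.701%).

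The mt-Rnr1 difference after STZ was called unlike in preterm and term mice by edgeR, with an interaction of -2.45 on the log2 scale. The call was lost in 11 of 14 fits that left out 1 library and under 3 other settings. The mt-Te interval was at 0 in the unstranded counts that the main tests used and was 1.35 higher on the log2 scale in PT-D than in T-ND in the strand-summed counts, which were outside those tests. The causes were not tested.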

How the results depend on the processing

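Over 688 values recomputed under other settings, 623 kept their direction and side of the threshold or moved by less than the replicate spread or 1.5 times, 21 lost and 12 gained a call, 24 moved further and 8 reversed. The count of called members was 0 in all 5 pairs. It became 1 in PT-D against T-ND with strand columns summed; 1 in PT-D against T-D with DESeq2, 2 with no filter, 1 with all 14 libraries in one fit, and 0 to 1 leaving out a library (1 without T-D replicate 4); and 1 in PT-D against PT-ND with strand columns summed, and 0 to 1 leaving out a library (1 without PT-ND replicate 1). The 1 interaction call became 0 with total counts only, with the suffix as covariate and in libraries without suffix, 2 with RNA integrity as covariate, and 0 to 1 leaving out a library. The median over the 13 mRNAs ranged from 0.11 (without PT-D replicate 1) to 0.69 in PT-D against T-ND, and from -0.17 to 0.46 in PT-D against T-D, leaving out a library. The interaction median was -0.46 in libraries without suffix and -0.37 to 0.11 leaving out a library (-0.37 without PT-D replicate 1). The rRNA to mRNA ratio of PT-ND against T-ND was -0.38 to 0.16 leaving out a library (0.12 and 0.04 without T-ND replicates 3 and 4, 0.16 and 0.04 without PT-ND replicates 1 and 2). mt-Nd5 in T-D against T-ND turned to 0.029 with the suffix covariate and was -0.22 to 0.16 leaving out a library (0.01 without T-ND replicate 1, 0.16 without T-D replicate 4). mt-Te in PT-ND against T-ND was -0.076 (without PT-ND replicate 1) to 0.51. Scaling by total counts only gave a median over all genes of 0.22 in PT-D against T-D, -0.13 in T-D against T-ND, 0.15 in PT-D against PT-ND and 0.30 in the interaction, beside 0.061, -0.017, 0.049 and 0.074. Of 79 nuclear subunit genes, 1 passed by edgeR in each of PT-D against T-ND and PT-D against T-D, and 21 and 68 by DESeq2. Except where the construction of the alternative leaves out libraries or filters, the cause was not tested.

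Same-numbered libraries did not deviate together (2 of 16 correlations above 0.1, range -0.30 to 0.27), so replicate numbers were not taken as pairs. With the replicate block the medians over the 13 mRNAs were 0.31, 0.21, 0.33, 0.02 and 0.23 in the 5 pairs and -0.08 in the interaction, and no member's call changed, while the DEGs among all genes in PT-D against T-ND went from 323 to 73.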

Other observations

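Nuclear genes whose levels followed those of the 13 mitochondrial mRNAs over the 14 libraries were led by the genes of the chromosome 1 copy. Pearson's r of log2 CPM was 0.88 for Gm29216, 0.87 for Gm28661, 0.84 for Gm28439 and 0.83 for Atp6-ps, all of them near-identical to mitochondrial genes and able to share their reads, and 0.82 for Grem1, a secreted antagonist of bone morphogenetic proteins. The lowest values were -0.82 for Ttc33, -0.80 for Pdha1, a pyruvate dehydrogenase subunit, and -0.79 for Ppp2r1b. With only the 7 mRNAs beyond the copy, a choice made after seeing the data, the highest were Gnptab and Kcnq1ot1 at 0.90 each, and the lowest were Crlf3 at -0.86 and Arg2, the mitochondrial arginase, at -0.83. These are descriptions over 12153 genes whose points share depth and group structure.

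Lars2, the mitochondrial leucyl-tRNA synthetase, had its highest levels in the 3 libraries with the most unmapped reads. It had 3066 CPM in T-D replicate 4 (5.16% unmapped), 2145 CPM in PT-ND replicate 1 (4.01%) and 1466 CPM in PT-ND replicate 3 (2.91%), and at most 865 CPM in the other 11 libraries (at most 2.28% unmapped). In PT-D against PT-ND it fell by 1.66 on the log2 scale (edgeR adjusted p = 0.0480), while PT-ND against T-ND gave 1.38 (edgeR adjusted p = 0.320).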
